A study of Danio rerio with 4 samples.

Results

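Transcription factor genes of the pancreatic progenitor and duct programmes, with ptf1a as the acinar contrast, were examined in sorted cells of the adult zebrafish pancreas. They are foxa2, pdx1, nkx6.1, onecut1, onecutl, sox9a, sox9b and ptf1a, taken by gene name from the authors' deposited tables, and they make up 8 of the 3020 distinct genes listed there. Centroacinar cells (CAC), which sit where the finest duct branches meet the acini, and non-centroacinar cells (non-CAC) came from pancreas of adult AB-strain fish, separated by fluorescence-activated cell sorting, with 2 RNA sequencing libraries per group. No other genotype, treatment or age is given in the labels, and neither the marker used for the sort nor the cell types within the non-CAC fraction is given in the sources used here. Each replicate has its own table, in which a gene's value is the linear ratio between the CAC and the non-CAC library of that replicate, and only genes with a posterior probability of differential expression of at least 0.99 are listed.

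Since no header names the population on top of the ratio, genes are described here as lying below 1 or above 1, and a log2 ratio is negative below 1. For the same reason the sorted populations could not be checked against their defining markers by direction. A table has 1 library per group, so no ratio has an error within its table. Levels per library and depth were not analysed here, and fewer cells of a type cannot be told apart from less RNA per cell. The table of replicate 1 lists 1812 genes and holds no ratio between 0.0571 and 35.3, whereas that of replicate 2 lists 1560 genes and holds none between 0.325 and 2.98.

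The pancreas and its ducts are built from foregut endoderm under a small set of transcription factors that act in overlapping combinations. FoxA proteins open chromatin in endoderm, Pdx1 and Nkx6.1 mark pancreatic progenitors, and Onecut1 (also called Hnf6) and Sox9 are used both in progenitors and in the mature duct. Ptf1a is needed for acinar cells, where it drives digestive enzyme genes. In zebrafish, duct-associated cells that respond to Notch, which include centroacinar cells, can give rise to endocrine cells, and sox9b is expressed in the pancreatic and biliary ducts.

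By selection, all 8 genes were listed in at least 1 of the authors' deposited tables, 5 in replicate 1 and 7 in replicate 2. Of the 5 in replicate 1, 4 lay below 1, where 33.4% of all listed genes did. Of the 7 in replicate 2, 6 lay below 1, where 57.1% of all listed genes did. The genes foxa2, pdx1, nkx6.1 and onecut1 were listed in both tables, and all 4 lay below 1 in both, against 61.4% of the 352 genes found in both tables. Another 32.7% of those 352 lay above 1 in both, and none of the 4 did. None of the 4 changed side between replicates, and only 21 of the 352 did. The exceptions above 1 were onecutl in replicate 1 and ptf1a in replicate 2. The genes had been chosen with earlier results from these tables known, so these counts describe them and are not a test.

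**Figure D1:**
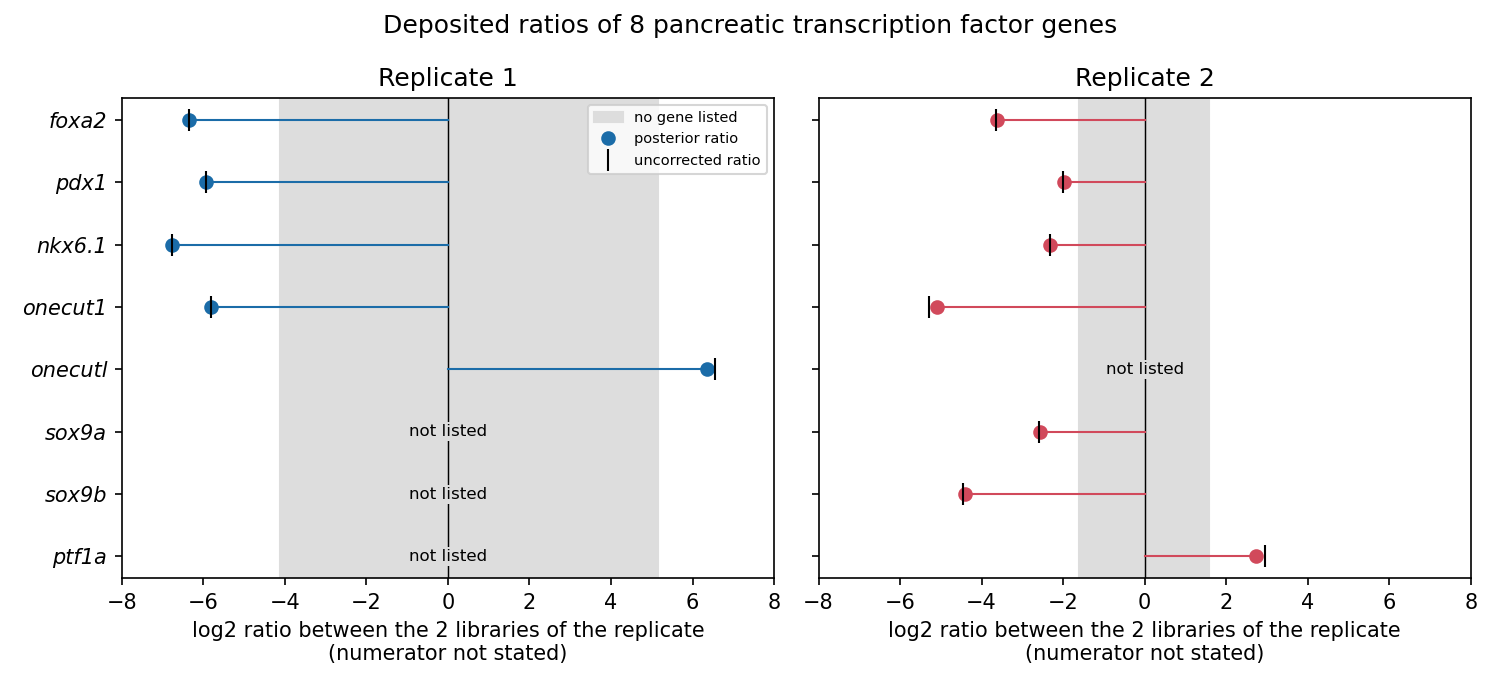
Log2 ratio of each of the 8 genes (rows) between the libraries of replicate 1 (left) and replicate 2 (right). Points are the posterior ratio, black ticks the uncorrected ratio, and grey marks the range in which the table lists no gene. The 4 genes listed in both tables lie left of 0 in both panels, and only onecutl and ptf1a lie right of 0.

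The endoderm gene foxa2 (ENSDARG00000003411, Zv9 chromosome 17, 42391851 to 42394352) had a ratio of 0.0123 in replicate 1 and 0.0813 in replicate 2 in the authors' deposited tables. Its log2 ratios of -6.34 and -3.62 were both in the lower part of their table. By distance from 1 it ranked 122 of the 606 genes below 1 in replicate 1, and in replicate 2 it ranked 265 of 890. As the percentage of that side lying as far from 1 or farther, its place was 20.1% in replicate 1 and 29.8% in replicate 2. For onecut1 these were 30.7% and 11.3%, for nkx6.1 13.2% and 66.5%, and for pdx1 27.2% and 83.3%.

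The homeobox genes pdx1 and nkx6.1 lay closest to 1 in replicate 2. In the authors' deposited tables, pdx1 (ENSDARG00000002779, chromosome 24, 22292136 to 22294654) had ratios of 0.0164 in replicate 1 and 0.252 in replicate 2. Its log2 ratio of -1.99 in replicate 2 put it at rank 741 of 890 on that side, not far from the edge of the list at -1.62. For nkx6.1 (ENSDARG00000022569, chromosome 21, 17886032 to 17888943), the authors' deposited tables gave ratios of 0.00924 and 0.201, or -6.76 and -2.32 on the log2 scale. It was the farthest from 1 of the 8 genes in replicate 1, ranking 80 of 606 among genes below 1, and ranked 592 of 890 in replicate 2. The differences between replicates, 4.44 for nkx6.1 and 3.94 for pdx1 on the log2 scale, exceeded the median difference of 2.68 over the 216 genes below 1 in both tables, to which foxa2, at 2.72, was close.

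The cut-homeobox gene onecut1, which has a role in the ducts, had the smallest log2 difference between replicates among the 4 shared genes. Its ratios were 0.0178 and 0.0292 in the authors' deposited tables (ENSDARG00000007982, chromosome 18, 37192311 to 37197560), a difference of 0.72 on the log2 scale. By place among the genes below 1, however, onecut1 moved from 30.7% to 11.3%, whereas foxa2 moved less, from 20.1% to 29.8%. Among the 4 shared genes onecut1 was the nearest to 1 in replicate 1 and the farthest from 1 in replicate 2, with a posterior probability of equal expression of 6.66e-16 there. The listed gene nearest to it, si:ch211-215d8.2, lies 540 bp away (37186835 to 37191771) and had, per the authors' deposited tables, log2 ratios of -5.54 and -4.67, against -5.82 and -5.10 for onecut1. In replicate 2 the uncorrected log2 ratio of that neighbour was -11.01, so its size there depends on the fold column. Of the 2559 genes with a readable locus, 8.01% lay within 1 kb of another listed gene. The sources used here do not say whether reads were counted by strand, so reads from adjoining genes may not be fully separated.

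The related gene onecutl lay on the other side. The authors' deposited table of replicate 1, the only one to list it, gave a ratio of 81.6 (log2 6.35) and a posterior probability of equal expression of 0.00105. It ranked 705 of 1206 among genes above 1, where 66.6% of all listed genes lay. The locus given for onecutl (ENSDARG00000040253, chromosome 16, 31774763 to 31790653) is also, base for base, the locus given for the cathepsin gene ctssb.2. That gene was absent from the table of replicate 1, and the authors' deposited table for replicate 2 put its ratio at 3.93. Of the genes with a readable locus, 6.1% shared it exactly with another listed gene, and onecutl was the only 1 of the 8 to do so. The value of onecutl is therefore uncertain, and its opposite side from onecut1 rests on 1 pair of libraries.

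The zebrafish co-orthologues of SOX9 were both listed in replicate 2 alone and both lay below 1. In the authors' deposited table, sox9b (ENSDARG00000043923, chromosome 3, 63179327 to 63184452) had a ratio of 0.0471 and sox9a (ENSDARG00000003293, chromosome 12, 2151821 to 2157414) a ratio of 0.168. Thus the ratio of sox9b was 3.56 times lower than that of sox9a, with log2 ratios of -4.41 and -2.58 and no replicate to give this difference an error. Of the 6 genes below 1 in replicate 2, sox9b was second only to onecut1 in distance from 1. Its posterior probability of equal expression was 1.11e-16, against 6.66e-16 for onecut1. Such values are near the limit of numerical precision, with cftr given as 0 in that replicate, and they do not order these genes. Neither sox9a nor sox9b was listed in replicate 1. A ratio as large as that of sox9a falls inside the range where replicate 1 lists no gene. That of sox9b falls outside it, near its edge of 0.0571, and whether sox9b was callable in replicate 1 was not tested.

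The order of the genes therefore differed between replicates. In replicate 1, from the farthest from 1, it was nkx6.1, foxa2, pdx1 and onecut1. In replicate 2 it was onecut1, sox9b, foxa2, sox9a, nkx6.1 and pdx1. The authors' deposited tables gave log2 ratios of -6.76 to -5.82 for the 4 shared genes in replicate 1 and of -5.10 to -1.99 in replicate 2.

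**Figure D2:**
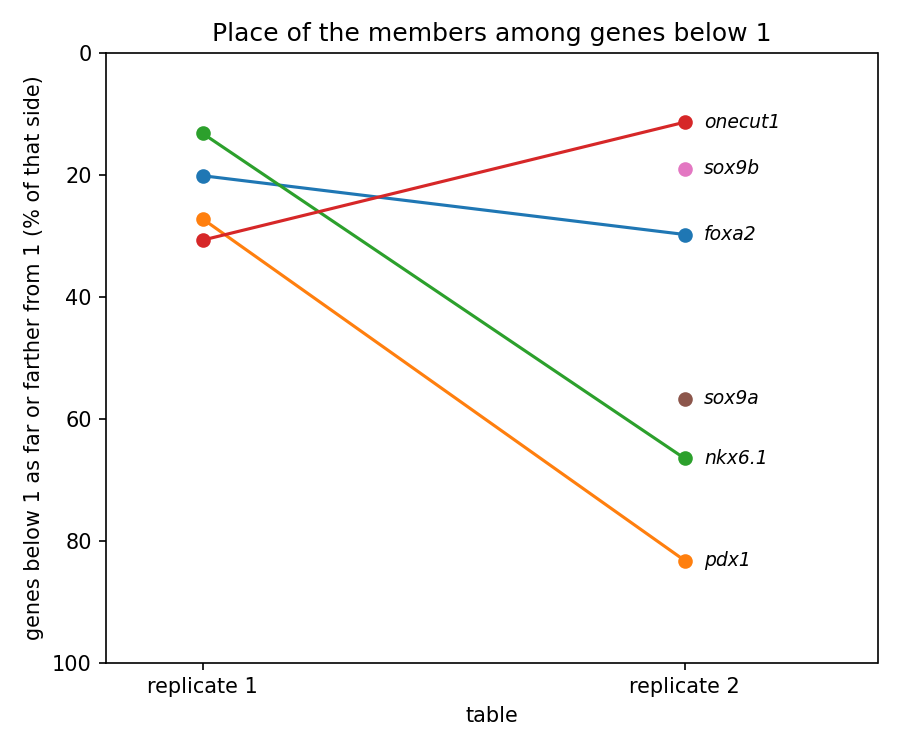
Place of each gene among the genes below 1 of its table (606 in replicate 1, 890 in replicate 2), as the percentage of that side lying as far from 1 or farther, with the farthest at the top. Lines join the 4 genes listed in both. The lines of nkx6.1 (13.2% and 66.5%) and pdx1 (27.2% and 83.3%) run down to replicate 2, and that of onecut1 runs up.

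Averaged over replicates, the log2 ratio was -5.46 ± 0.51 for onecut1, -4.98 ± 1.92 for foxa2, -4.54 ± 3.14 for nkx6.1, and -3.96 ± 2.79 for pdx1 (SD, n = 2 each). These SDs lie on both sides of 1.90, the median SD of the genes below 1 in both tables. Fitted to the within-replicate log2 ratios of the 352 shared genes, limma called none of the 4 at a Benjamini-Hochberg adjusted p of 0.05. The pairing of libraries was its only replicate block, so a shift in ratios between replicates stayed in the error. Adjusted p-values ran from 0.0678 for onecut1 to 0.107 for pdx1, and 3 of the 4 (onecut1, foxa2 and nkx6.1) had an unadjusted p under 0.05. Over all 352 genes limma called 4 (1.14%) below 1 after adjustment and 104 (29.5%) at an unadjusted p under 0.05. These shares count calls below 1 only, but over genes of both sides. Only 216 of the 352 lay below 1 in both tables, as the 4 did, so 29.5% understates the share among genes of their side. The standard error, 2.19, was the same for every gene in this fit, and the genes in it had already been selected as different in both tables, a selection that its p-values do not allow for.

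The acinar regulator ptf1a lay above 1 in replicate 2, where 42.9% of listed genes did, and was absent from replicate 1. For ptf1a the authors' deposited table gave a ratio of 6.66 (log2 2.74, ENSDARG00000014479, chromosome 2, 29425688 to 29426593). Genes of the digestive enzymes that acinar cells secrete were on the same side in replicate 2. Of 35 enzyme and secretory names, 16 were matched by symbol, or 26 when matched also through the gene identifier, and every one of them lay above 1. By the authors' deposited table, their ratios spanned 4.35 to 11.7 around a median of 6.53, so ptf1a sat among them, with 11 of the 26 higher and 15 lower. The elastase gene ela2l was the highest of the 26, at 11.71, and the authors' deposited table put the carboxypeptidase genes cpa1 and cpa5 at 9.56 and 9.39. A second entry named SYCN, besides the 1 matched as sycn.1, was not counted among the 26. The authors' deposited table for replicate 2 put it at 11.75. Only CUZD1, which the name table gives as cuzd1.1, was listed in replicate 1, where the authors' deposited table put it at 139.

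The call for ptf1a was weaker than those for the enzymes. Its posterior probability of equal expression was 0.00262, rank 1217 of 1560 from the smallest, whereas none of the 26 enzyme genes exceeded 8.89e-06. In the authors' deposited table its uncorrected ratio, 7.71, was 0.21 higher on the log2 scale, the widest gap between the fold columns among the 12 listed values of the 8 genes. All the values of ptf1a were also identical to those of FRMPD3, an instance of exact ties that affected 9.74% of the genes in that table and no other of the 8. Of 12 further names searched as acinar regulators, only the zinc finger repressor gene prdm1a was listed. The authors' deposited table for replicate 2 put it at 5.16, and which cells its transcripts came from was not tested. Neither bhlha15 nor nr5a2, which act with Ptf1a in mouse acinar cells, was in either table.

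**Figure D3:**
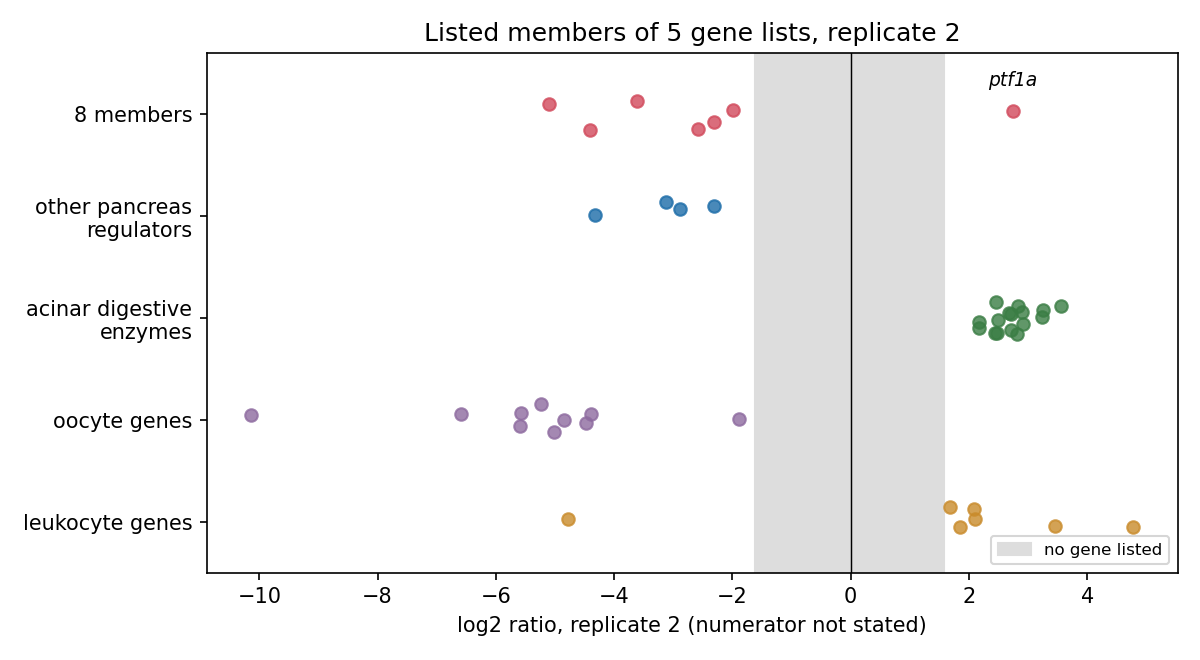
Log2 ratio in replicate 2 of the listed genes of 5 lists matched by symbol, 1 point per gene with vertical scatter for legibility. Grey marks the range with no listed gene. Among the 8 genes only ptf1a shares the side of the 16 enzyme genes, and the oocyte genes lie on the side of the other 6.

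Other regulators of the pancreas and foregut endoderm were few in the tables, and those listed lay mostly below 1, as foxa2, pdx1, nkx6.1 and onecut1 did. Of 49 names, 4 were listed by symbol in each replicate, all below 1, and 3 of them were in both. With identifiers and older names matched as well, the first replicate listed 8 (7 below 1) and the second 7 (7 below 1), with 6 genes shared. Of all listed genes, 33.4% lay below 1 in replicate 1 and 57.1% in replicate 2. Among the 352 genes in both tables, 61.4% lay below 1 in both, so a place on that side is not particular to these regulators. For nkx2.2a, the authors' deposited tables gave log2 ratios of -6.42 and -2.89. It is a homeobox gene of endocrine progenitors. Those authors' deposited tables put the SoxC gene sox11a at -5.32 and -4.33, and the epithelial ETS gene elf3 at -4.97 and -3.12. Another, listed as hlxb9la and given as mnx2a in the name table, is a homeobox gene of the Mnx family. The authors' deposited tables put it at -6.78 and -5.07, and in replicate 1 it was farther from 1 than each of the 5 listed there among the 8 genes. Listed under the older names prox1 and meis1, the homeobox genes prox1a and meis1b were at -6.14 and -2.82 and at -6.36 and -2.41 in those authors' deposited tables. Each in 1 of the authors' deposited tables only, the Krüppel-like gene klf5b was at -5.08 (replicate 1) and the helix-loop-helix inhibitor gene id2a at -2.31 (replicate 2). The exception was meis4.1a, given as meis1a in the name table, which the authors' deposited table for replicate 1 put at 6.39, on the other side from meis1. Under the names searched, hhex, gata4, gata6 and hnf4a were in neither.

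**Figure D4:**
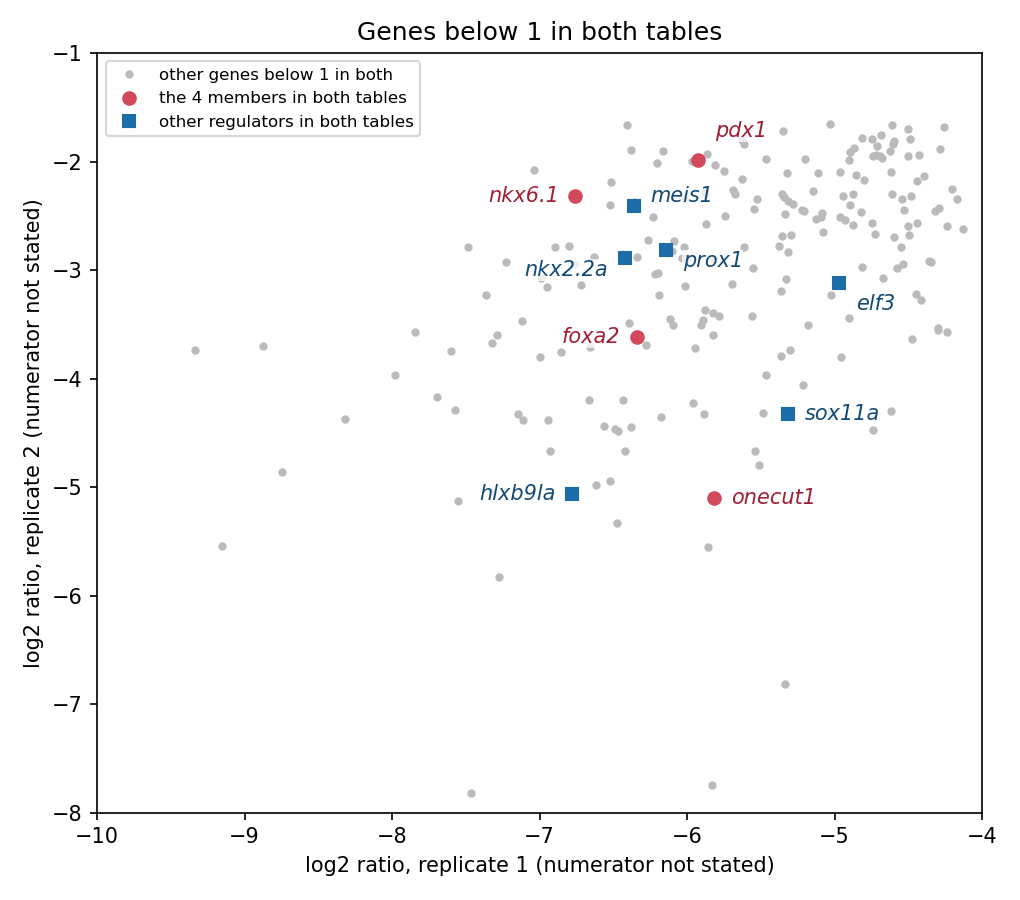
Log2 ratio in replicate 1 against replicate 2 for genes below 1 in both tables (216 genes, 4 of them outside the axes). Red circles are the 4 shared genes and blue squares the other regulators, including hlxb9la, prox1 and meis1. The genes onecut1 and hlxb9la lie lowest of those named, at -5.10 and -5.07 in replicate 2.

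Regulators of endocrine differentiation were on both sides. Of 25 names, 3 were listed by symbol in replicate 1, and all 3 were genes whose uncorrected and posterior folds differed by over 10 times, so their sizes depend on the fold column. In the authors' deposited table these were neurog3, which specifies endocrine progenitors in mouse, at -6.95, and rfx6 and fev at 9.03 and 6.25. Under its older name arx, arxa was at 6.35 in that authors' deposited table. In replicate 2 the authors' deposited table held mafbb at 3.22 and isl1l, given as isl1b in the name table, at 4.85. The uncorrected log2 ratio of isl1l was 11.20, so its size depends on the fold column as well. None of these regulators was in both tables. By contrast, none of the 12 values of the 8 genes differed by over 10 times between the fold columns, and the widest difference was 0.21 on the log2 scale.

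Within their own gene families, the side of these genes was not shared by all relatives. Of the 11 listed genes with a foxa to foxq symbol, 2 lay below 1 and 9 above 1 in replicate 1, where 66.6% of all listed genes lay above 1. Of the 5 in both tables, foxa2 and foxp4 lay below 1 in both, and foxd3, foxi3b and foxp3b above 1 in both. Among the 352 genes in both tables, 61.4% lay below 1 in both and 32.7% above 1 in both. The authors' deposited tables gave foxp4 -4.50 and -2.59, and foxp3b 5.16 and 2.45, as log2 ratios. In those authors' deposited tables foxd3 was at 6.08 and 5.35, with uncorrected log2 ratios of 13.23 and 11.72. In replicate 1 foxi3b was at 5.84, with an uncorrected value of 12.99. These sizes of foxd3 and foxi3b therefore depend on the fold column, although their side does not. The uncorrected values of foxp3b, 5.40 and 2.52, were close to its posterior ones. Of 4 nkx genes, nkx6.1 and nkx2.2a lay below 1 in both, while the authors' deposited table for replicate 1 put nkx1.2lb at -5.64 and nkx2.5 at 6.93. The uncorrected log2 ratio of nkx2.5 was 14.09, so its size depends on the fold column as well. Of 4 sox genes, sox11a was the one in both tables, and sox14 lay above 1 in replicate 1. No onecut gene other than onecut1 and onecutl was listed.

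Among 236 named genes in both tables, those with ratios most like each of the 4 were found by distance over the log2 ratios of both replicates. The nearest to pdx1 was btk, a tyrosine kinase gene of B cells, at a distance of 0.042, then the chemokine gene cxcl12b at 0.084 and smtnl at 0.13. The nearest to nkx6.1 were the Wnt antagonist gene frzb (0.25), olfml2a (0.27) and JDP2 (0.40). For foxa2 they were IGSF5 (0.094), B3GNT8 (0.15) and fscn1 (0.27). The surroundings of onecut1 were emptier, with PCDHAC1 (ENSDARG00000090614) at 0.45, ADM at 0.73 and p2rx1 at 0.74. In the authors' deposited table for replicate 2, their uncorrected log2 ratios were -11.92, -11.29 and -11.01, against -5.29 for onecut1. Their nearness to onecut1 therefore depends on the fold column. Each distance rests on 2 ratios and is a description.

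Genes of the ducts, of kidney cysts and of the islets were sparsely listed. Of 31 names, the chloride channel gene cftr lay below 1 in both of the authors' deposited tables, with log2 ratios of -8.74 and -4.86. Under a clone name, the authors' deposited tables also held the keratin gene krt94 below 1, with -7.85 and -3.57. Only the authors' deposited table for replicate 2 held bicc1b and the insulin gene ins, both above 1, with 1.85 and 1.71. By side the list split in replicate 2, with cftr and krt94 below 1 and bicc1b and ins above 1. Outside this list, pdx1 lay on the other side of 1 from ins in that replicate. The polycystic kidney genes pkhd1 and pkd2 were in neither table.

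Markers of other cell types also differed between the libraries. With matching by symbol, the 10 listed oocyte genes of replicate 2 all lay below 1, where 57.1% of all listed genes and most of the 8 genes lay. The 3 in replicate 1 lay above 1, where 66.6% of all listed genes lay. In these 3 the uncorrected and posterior folds differed by over 10 times, so their sizes depend on the fold column. Of 19 leukocyte names, 6 were listed by symbol in replicate 1, and 6 of 6 lay above 1. In replicate 2, where 42.9% of all listed genes lay above 1, 6 of 7 did. Such a fold gap was found in 4 of the 6 and 2 of the 7. With identifiers as well, the counts above 1 were 7 of 7 and 6 of 8. The authors' deposited table for replicate 2 put MPEG1 at -2.35 and mpeg1 at 2.11, as log2 ratios. The B-cell gene btk, which was not among the 19 names, lay below 1 in both of the authors' deposited tables, at -5.97 and -2.00. The single listed hormone gene, ins, and both mesenchymal genes lay above 1 in replicate 2. Endothelial genes were in replicate 1 alone, 1 below and 3 above 1, and in 2 of those 3 the folds differed by over 10 times. Their summed levels in each population were not analysed here, and their part in the ratios of the 8 genes was not tested. Most of the 8 genes and the oocyte genes shared a side in replicate 2 and not in replicate 1, where the 4 shared genes stayed below 1.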

How the data were processed

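Per the labels, RNA from sorted CAC and non-CAC of adult zebrafish pancreas was sequenced from TruSeq libraries, 2 per group, and both libraries of a replicate share a table. That shared table is the source of the pairing. The labels do not say whether replicates were separate pools of fish, so their spread may be technical. RSEM, Zv9 and danRer7 (names of 1 assembly) appear in the submitters' processing notes without role or version; loci are printed as deposited, with Zv9 taken from those notes. Per the file headers, the authors deposited for each gene a posterior and an uncorrected fold (linear ratios) and posterior probabilities as fractions between 0 and 1. The caller and the numerator are not given in the sources used here.

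A result on 1 further gene is not reported here. Members and lists were chosen with earlier results of these data known. Ratios were put on a log2 scale with no pseudocount and counted by side. Genes named were all members, up to 8 listed genes per list, the 3 nearest in pattern, family relatives, and genes of other lists or neighbouring loci; absent genes were named after their values were seen. Symbols were matched exactly, and also through a table of Ensembl identifiers that held all 8 members and 2048 of 3020 listed genes. After the data were seen, regulators were matched also through synonyms in a RefSeq gene table (assembly GRCz12tu, used for names only). The plan's alternative for counts was not needed. limma 3.58.1 (R 4.3.3) fitted the within-replicate log2 ratios of the 352 shared genes and was checked on simulated data. The simulation had independent normal noise and no selection of genes, so it does not vouch for the p-values of these data. Python 3.11.15 was used for the rest. Depth was not analysed here, so no interval or detection limit was computed.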

Additional observations from a re-analysis of the deposited data

How the results depend on the processing

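The 4 genes below 1 in both tables remained 4 with the uncorrected fold and with each table centred on its median. Centring could not move a gene below 1 to the other side in replicate 1, and the 3 values closest to the centre were then pdx1 at -0.09 and nkx6.1 at -0.42 in replicate 2 and onecutl at 0.33 in replicate 1 on the log2 scale. The count was 3 at 4-fold or more, which leaves out pdx1, and 4 at a posterior probability of equal expression under 0.001, which leaves out onecutl and ptf1a, both above 1. With 1 replicate left out, it was 4 to 6 for these genes. Over all 85 names of other pancreas, endocrine and acinar regulators, 3 lay below 1 in both tables and 4 to 5 with 1 replicate left out, where neurog3 enters in replicate 1. That count was 2 at a posterior probability of equal expression under 0.001, 4 with identifier matching and 6 with older names as well, a setting chosen after seeing the data. With the replicate block in limma, which here pairs the libraries by construction, 0 of the 4 genes and 0 of the 3 other regulators passed an adjusted p of 0.05, with 3 and 2 at an unadjusted p under 0.05. No ratio of the 8 genes changed side with the uncorrected fold or with centring. The other settings only leave genes out or add names, so they could not change a side. Depth is unknown, and a gene that is not listed may have been similar between populations or not callable.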
